A study of Gallus gallus with 23 samples.

Results

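Growth cartilage of the chicken embryo hindlimb was profiled on Affymetrix arrays, and 17 of 6982 genes that could qualify had a level in control cartilage that rose with stage in both the femur and the tibiotarsus (TBT). A gene qualified where a probe set with 1 gene symbol averaged at least 6 on the log2 scale over all 23 arrays, and genes were chosen by the stage rise, where the mean of the E15 control arrays exceeded the mean of the E12 and E13 control arrays by at least 1.0 in each element. Collagen genes were left out of the choice, and of their 22 probe sets past the same minimum mean 0 met it. A further 21 genes reached a rise of 1.0 in the femur alone and 7 in the TBT alone, and 17 fell by that much in both. Immobilised embryos received decamethonium bromide (DMB), which holds muscle in rigid paralysis, from embryonic day (E) 10 onwards, and control embryos received the Tyrode's solution that carries it. The groups were distal femur and proximal TBT of control embryos at E12 and at E13 (n = 3 arrays each), of immobilised embryos at E15 (n = 3 each) and of control embryos at E15 (n = 2 for the femur and n = 3 for the TBT). Each array held cartilage pooled from 4 embryos, so no value belongs to a single animal, and it is not stated whether femur and TBT pools came from the same embryos. DMB acts on the whole embryo, and no array of immobilised embryos at E12 or E13 was analysed here.

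Cartilage anlagen of the long bones lengthen by division and enlargement of chondrocytes, and their centre is later invaded by vessels that bring osteoclasts, blood cells and the cells of the future marrow. Heterophils, the chicken counterpart of mammalian neutrophils, store antimicrobial peptides and enzymes in granules, and beta-defensins, small cysteine-rich peptides that damage bacterial membranes, are among them. Chondrocytes meanwhile deposit a matrix of collagens, proteoglycans and adaptor proteins such as COMP, and matrix metalloproteinases cut it during its remodelling.

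The dissection was described as excluding ossified bone, marrow and red blood cells. Genes that define chondrocytes (ACAN, COL9A1, SOX9, MATN1 and HAPLN1) were high in all arrays, with a summed level between 14.71 and 14.92 in every array, and 0 of these 5 genes passed the test for immobilisation in either element, with differences between -0.08 and 0.21 on the log2 scale. Skeletal muscle markers were also present, and 19 of 32 measured genes passed that test as lower after immobilisation in each element. Over all probe sets 2.5% did so in the femur and 2.86% in the TBT. Differences were below 0 for 30 of the 32 muscle genes in the femur and for 32 in the TBT. Array medians lay between 5.78 and 5.85. Differences between groups are given on the log2 scale, on which each unit is a factor of 2, with their standard error (SE) and a p-value from limma, adjusted after Benjamini and Hochberg across the 11004 probe sets that were tested. A gene is called where that adjusted p is under 0.05.

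The genes were chosen by the stage rise, which is given here as a description. It spanned 1.15 to 3.06 in the femur, with a median of 1.62, and 1.03 to 3.46 in the TBT, with a median of 1.55. The femur had the larger rise for 8 genes and the TBT for 9. Every E15 control array lay above every E12 and E13 array for all 17 genes in the femur and for 12 in the TBT, where the 5 exceptions were the granule genes described next. The choice by stage rise itself favours this separation, and the femur had only 2 E15 control arrays. Its share over all probe sets is not given. GRIN3A and DPT stood just inside the threshold, with a smaller rise of 1.03 and 1.04, followed by CLEC3A at 1.15 and CXCL14 at 1.17. ALDH1A2, a retinoic acid-synthesising enzyme, stood just outside it at 0.99, followed by DMP1, a phosphoprotein of mineralising matrix, at 0.97, LGI2 at 0.95 and LOC419242 at 0.94.

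In the TBT the 5 steepest rises belonged to genes of blood granulocytes, called granule genes here, and in the femur MMP10, at 2.88, stood among them. LECT2, whose RefSeq synonym MIM1 is the name of a granule protein of chicken myeloid cells, rose with stage by 3.06 in the femur and 3.46 in the TBT (probe set 15424094). LECT2 is also on the list of cartilage matrix genes used below, and which cells its RNA came from was not tested. The beta-defensin genes AvBD7 (probe set 15492879), AvBD6 (15492882) and AvBD1 (15500195) rose by 3.04, 2.84 and 2.62 in the femur and by 3.39, 3.22 and 3.20 in the TBT. LYG2, a goose-type lysozyme that cuts bacterial cell walls, rose by 2.78 in the femur and 3.25 in the TBT (probe set 15405588).

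In the femur, LECT2 was 3.80, 4.30 and 3.87 at E12 and 3.83, 5.91 and 5.10 at E13, and at E15 it was 6.28, 7.48 and 6.78 in immobilised embryos and 6.60 and 8.45 in controls. TBT values were 4.48, 3.77 and 4.67 at E12 and 4.42, 4.89 and 7.10 at E13, and at E15 they were 9.06, 6.90 and 9.15 in immobilised embryos and 6.70, 9.31 and 9.04 in controls. Immobilised and control arrays thus overlapped in both elements, and E13 TBT replicate 3 lay above the lowest E15 arrays of that element. The means of the 5 granule genes showed the same arrays apart. That mean was between 3.97 and 4.93 in the E12 arrays and 5.04, 5.15 and 7.28 in the E13 TBT arrays. At E15 it was 9.20, 7.17 and 9.18 in immobilised TBT and 6.97, 9.49 and 8.99 in control TBT, so that 1 array of 3 in each group was low. It was 6.34, 7.70 and 7.08 in immobilised femur and 6.81 and 8.37 in control femur.

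**Figure D1:**
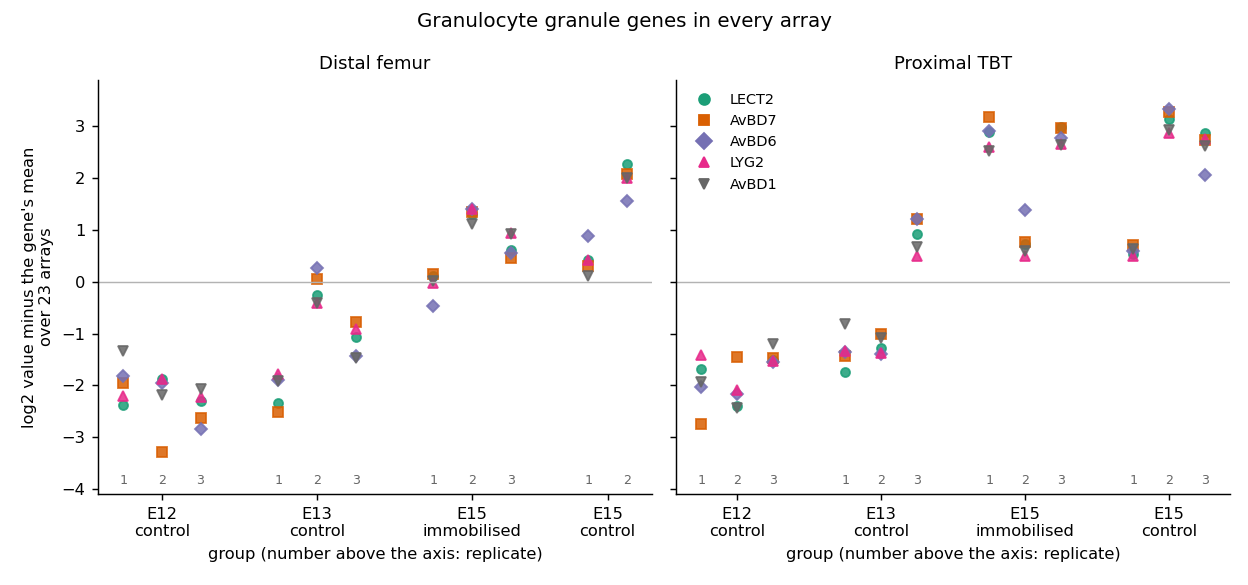
Log2 value of the 5 granule genes in each of the 23 arrays, each gene set to its own mean over all arrays, with 1 column of 5 symbols per array and the femur left of the TBT. The 5 symbols of an array lie close together while arrays of 1 group lie far apart, as in E13 control TBT, where replicate 3 stands above the other two.

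These 5 genes moved together from array to array within groups. Pearson's r of their deviations from the group means lay between 0.86 and 0.98 over the 10 pairs of genes. It is a description over 23 arrays, which share stages and may share embryos between elements. The residual standard deviation of the 5 genes was 0.913 to 1.13 on the log2 scale. The median over all probe sets tested was 0.16, and the 5 genes exceeded 99.3% to 99.9% of them. Among the other 12 genes the median r over 66 pairs was 0.178, the lowest -0.41 and the highest 0.73, for CLEC3A with GRIN3A. Of those 12, RASD1 (r = 0.662), RAC2 (r = 0.636) and MMP9 (r = 0.542) followed the granule mean most closely, and MMP10 (r = 0.0172) and DPT (r = 0.0225) least.

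The 3 defensin genes are neighbours. In RefSeq gene order (GRCg7b) the cluster holds 14 defensin genes, and AvBD7, AvBD6, DEFB4A (synonym AvBD2) and AvBD1 follow one another as the 7th to the 10th of them. DEFB4A had a stage difference of 2.21 in the femur and 2.82 in the TBT, but its mean of 4.83 lay below the minimum of the rule. The genes on either side had smaller values. The stage difference of AvBD8 was 0.46 in the femur and 0.13 in the TBT, and that of AvBD3 was 0.39 and -0.08. AvBD5, the 12th, had a mean of 7.08, above the minimum of the rule, and differences of -0.215 and 0.063. AvBD4, the 13th, had differences of 0.88 and 1.32. No probe set was matched to AvBD13 or AvBD14. Neighbouring genes of 1 family can share probes by sequence, and this was not tested. LECT2 and CXCL14, another of the 17, also lie on 1 chromosome, with 5 protein-coding genes between them.

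**Figure D2:**
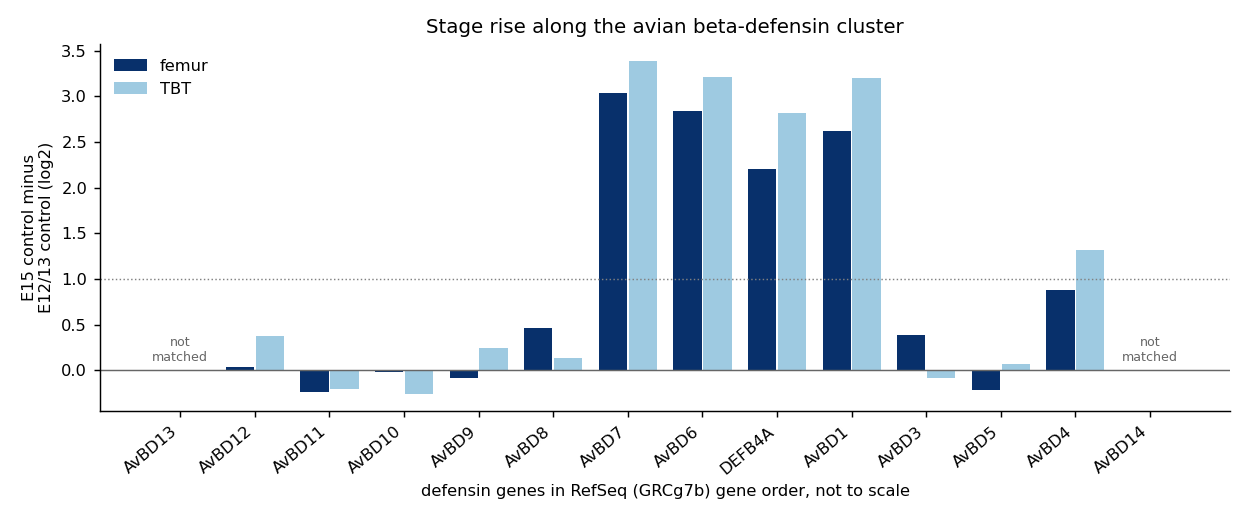
Stage rise (E15 control mean minus E12/13 control mean, log2) of the avian beta-defensin genes in RefSeq gene order, femur bars left of TBT bars, with the threshold of 1.0 dotted. The 4 adjacent genes AvBD7, AvBD6, DEFB4A and AvBD1 had differences of 2.21 to 3.39, and the other genes shown had differences of at most 1.32.

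Further granulocyte genes, picked after the 17 were known, gave a mixed picture. Of 12 such genes on the array 5 passed the filter on low variation. The stage difference of lysozyme C (LYZ) was 0.76 in the femur and 1.57 in the TBT, that of SERPINB10B was 1.31 and 1.66, and that of the granule protease gene CTSG was 0.56 and 1.10. MYB, a transcription factor of blood progenitors, had values of 0.25 and 0.55, and SERPINB10 had 0.22 and 0.24. The 7 that did not pass the filter had stage differences between -0.095 and 0.61 in the femur and between -0.08 and 0.84 in the TBT, the highest in both for CSF3R, a receptor of granulocyte growth. Under immobilisation 0 of these 5 were called in either element (limma; 0 in the femur and 1 in the TBT at an unadjusted p under 0.05, MYB, at -0.58). In bulk cartilage, more cells of a type and more RNA per cell cannot be told apart.

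Under immobilisation most of the 17 genes still had a mean above that of the younger stages, which the choice of genes favours. Few differed from E15 controls by the test. In the femur 1 gene was called lower, DPT, and 0 higher (limma; 2 lower and 1 higher at an unadjusted p under 0.05), where 2.5% of all probe sets were called lower and 1.89% higher. In the TBT 3 were called lower, DPT, MMP10 and SLC4A1, and 0 higher (9 lower and 1 higher at an unadjusted p under 0.05), where 2.86% of all were called lower and 2.88% higher. At an unadjusted p under 0.05, 9.52% of all probe sets were lower in immobilised femur and 8.97% in immobilised TBT. Femur differences were below 0 for 14 of 17 genes, against 49.8% of all probe sets, with a median of -0.54, against 0.00 over all. TBT differences were below 0 for 13, against 48.6%, with a median of -0.58, against 0.01. These contrasts share the E15 control arrays that the choice of genes required to be high, so a difference below 0 is favoured by the choice itself, and the counts and medians are descriptions.

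The share of the control rise that immobilised cartilage kept had a median of 77.8% over the 17 genes in the femur and 55.4% in the TBT. More than 50% was kept for 15 genes in the femur and 11 in the TBT, and 3 genes in the femur and 4 in the TBT stood higher in immobilised than in control cartilage. Every immobilised array lay above every E12 and E13 array for 12 genes in the femur (8.86% of all probe sets did so) and 7 in the TBT (7.76%). The rule required the E12 and E13 arrays to lie low against E15 controls, so standing above them is favoured by the choice. The shares kept and these counts are descriptions. Immobilised arrays all lay below the E15 controls for 6 genes in the femur (17.8% of all probe sets did so) and 7 in the TBT (10.9%), and above them for 1 gene in each (18.6% and 13.1%).

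**Figure D3:**
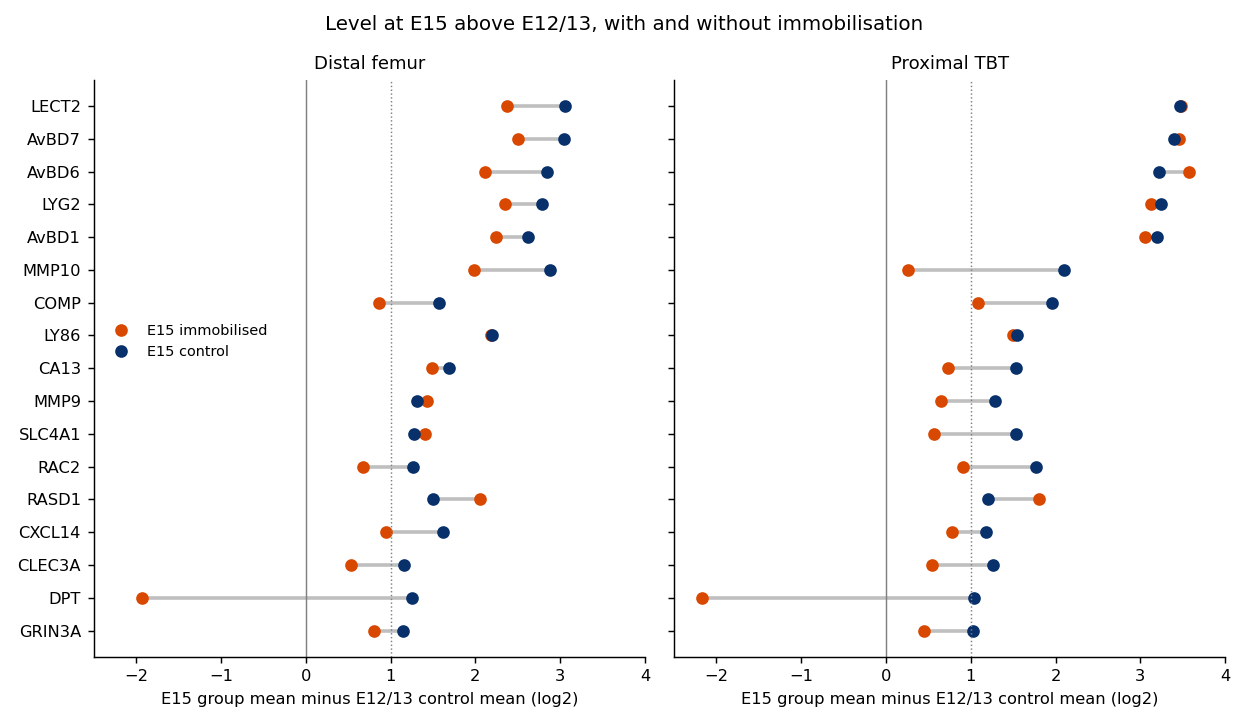
Mean at E15 above the E12/13 control mean (log2) for the 17 genes, with immobilised embryos in orange and controls in dark blue, femur panel left of the TBT panel, and the threshold of 1.0 dotted. DPT is the only gene whose immobilised mean falls below the younger stages, at -1.92 in the femur and -2.17 in the TBT.

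**Figure D4:**
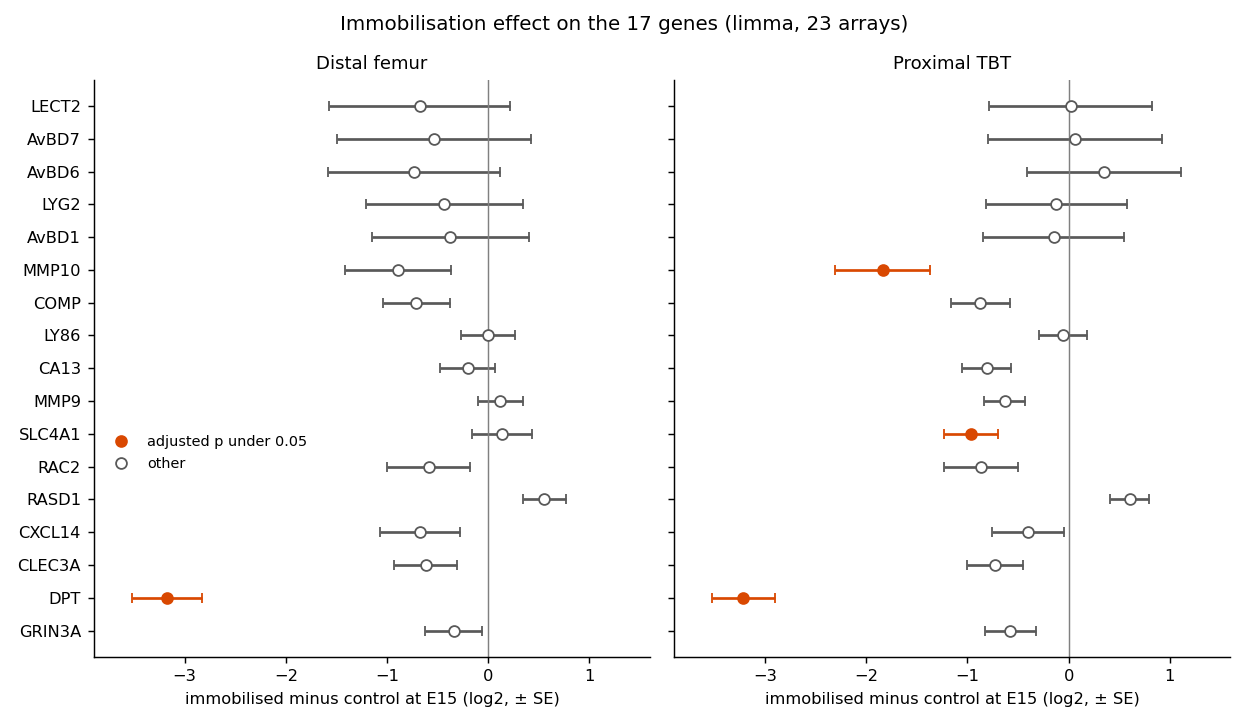
Immobilised minus control at E15 for each gene (log2, points with SE bars from limma), called genes filled. Bars of the 5 granule genes all cross 0, and DPT lies near -3.2 in both elements.

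Dermatopontin (DPT, probe set 15390985), a small matrix protein of skin and fibrous tissue that binds decorin, had the largest response of the 17 in both elements. In the femur it was 4.45, 5.06 and 5.68 in immobilised embryos, against 8.25 and 8.23 in E15 controls. TBT arrays read 3.74, 4.51 and 4.17 in immobilised embryos, against 7.30, 7.40 and 7.36 in E15 controls. No immobilised array came within 1 unit of a control array. The differences were -3.18 (SE 0.35, adjusted p = 5.57e-05) in the femur and -3.21 (SE 0.31, adjusted p = 9.02e-06) in the TBT. When limma was fitted to only the groups compared, the femur difference missed the threshold (adjusted p = 0.0588). The TBT difference passed it (adjusted p = 0.00564). E12 and E13 arrays lay between 5.99 and 7.40 in the femur and between 5.79 and 6.70 in the TBT, so every immobilised array also lay below every younger control array.

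DPT was the member of a list of tendon and fibrous tissue genes that passed the stage rule. Of 21 measured genes of that list, 3 were called lower and 1 higher in each element. Differences were below 0 for 10 of the 21 in the femur (median 0.075) and for 12 in the TBT (median -0.15). The elastic fibre component MFAP5 differed by -1.05 (adjusted p = 0.027) in the femur and -1.0 (adjusted p = 0.0164) in the TBT. TPPP3, a tubulin-binding protein of tendon sheath cells, differed by -1.70 (adjusted p = 0.00214) and -1.83 (adjusted p = 0.000341). Tenomodulin (TNMD), a tendon cell glycoprotein, was higher by 1.17 (adjusted p = 0.0128) and 1.12 (adjusted p = 0.00629). Lumican and osteoglycin, matrix proteoglycans of the same list, were not called, with differences between -0.18 and -0.34. Skeletal muscle markers moved with DPT under immobilisation. Their summed level over 32 genes was 9.96 to 10.68 in immobilised femur and 11.40 to 11.77 in control femur, and 9.92 to 10.25 in immobilised TBT and 11.27 to 12.21 in control TBT. With stage the 2 ran in opposite directions. The muscle sum was 12.32 to 12.94 in E12 arrays, above every E15 control. In E13 arrays it was 12.15 to 12.66 in the femur, above the femur controls at E15. In the TBT it was 12.16 to 12.62 at E13, which overlapped the E15 controls of that element. The part of muscle markers in the DPT difference was not tested.

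MMP10, a stromelysin that degrades proteoglycans and other matrix proteins, was called lower in immobilised TBT (probe set 15396029). In the TBT it was 8.65, 7.45 and 8.44 in immobilised embryos, against 9.94, 9.56 and 10.55 in controls, and the groups did not overlap. The difference was -1.84 (SE 0.47, adjusted p = 0.0267), and 12.3% of the stage rise was kept. In the femur it was 9.17, 10.43 and 8.37 in immobilised embryos, against 10.60 and 9.84 in controls, with 1 immobilised array inside the control range. That difference was -0.90 (SE 0.52, adjusted p = 0.383), with 68.8% of the rise kept. The difference between the effects did not pass the test (femur minus TBT 0.94, SE 0.70, adjusted p = 0.759). Leaving out control replicate 1 (adjusted p = 0.0505) or 3 (0.142) of the E15 TBT, or immobilised replicate 2 (0.14) or 3 (0.0559), ended the TBT call, while the difference stayed between -1.97 and -1.47 in these 4 fits.

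SLC4A1, the band 3 anion exchanger of the red cell membrane, was called lower in the TBT (probe set 15554107). Immobilised TBT arrays read 6.09, 6.31 and 6.24, against 6.41, 7.82 and 7.31 in control TBT. The control arrays were spread over more than 1 unit, with replicate 1 close to the immobilised arrays, and the groups did not overlap. The difference was -0.97 (SE 0.27, adjusted p = 0.0392). In the femur, 6.43, 6.87 and 6.91 in immobilised embryos overlapped 6.77 and 6.44 in controls (0.13, SE 0.30, adjusted p = 0.869). The difference between the elements was 1.10 (SE 0.40, unadjusted p = 0.0132, adjusted p = 0.406). Without E15 control TBT replicate 2 or 3, or any of the 3 immobilised TBT arrays, the TBT difference was between -1.01 and -0.65 with an adjusted p of 0.0857 to 0.158.

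Of 7 measured genes of an erythroid list, which holds SLC4A1, 2 were called lower in the TBT, SLC4A1 and the haemoglobin gene HBA1 (-0.63, adjusted p = 0.0255). HBAD differed by -0.63 (adjusted p = 0.0557). In the femur 1 was called higher, the embryonic globin gene HBE (1.52, adjusted p = 0.0398). The summed erythroid level was 13.28 to 13.33 in immobilised TBT and 13.67 to 13.91 in control TBT, and 13.37 to 13.93 in immobilised femur and 13.49 to 13.59 in control femur. At E12 and E13 it was 12.77 to 13.31. The part of red cell content in the SLC4A1 values was not tested.

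Carbonic anhydrase 13 (CA13, probe set 15454511), a cytosolic enzyme that forms bicarbonate, had a like pattern. It was 7.38, 7.23 and 7.32 in immobilised TBT, against 7.66, 8.27 and 8.42 in control TBT, and did not overlap (-0.81, SE 0.24, adjusted p = 0.0607). In the femur it was 7.62, 8.57 and 7.99 in immobilised embryos, against 8.49 and 8.04 in controls, and overlapped (-0.21, SE 0.27, adjusted p = 0.741). Leaving out control replicate 1 of the E15 TBT gave a call there (-1.03, adjusted p = 0.022), as did leaving out immobilised femur replicate 1 (0.0455) or 2 (0.0357), which enter only through the shared spread. With a code from the sample descriptions, the array code, as a block, CA13 was also called there (-0.91, adjusted p = 0.0425).

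**Figure D5:**
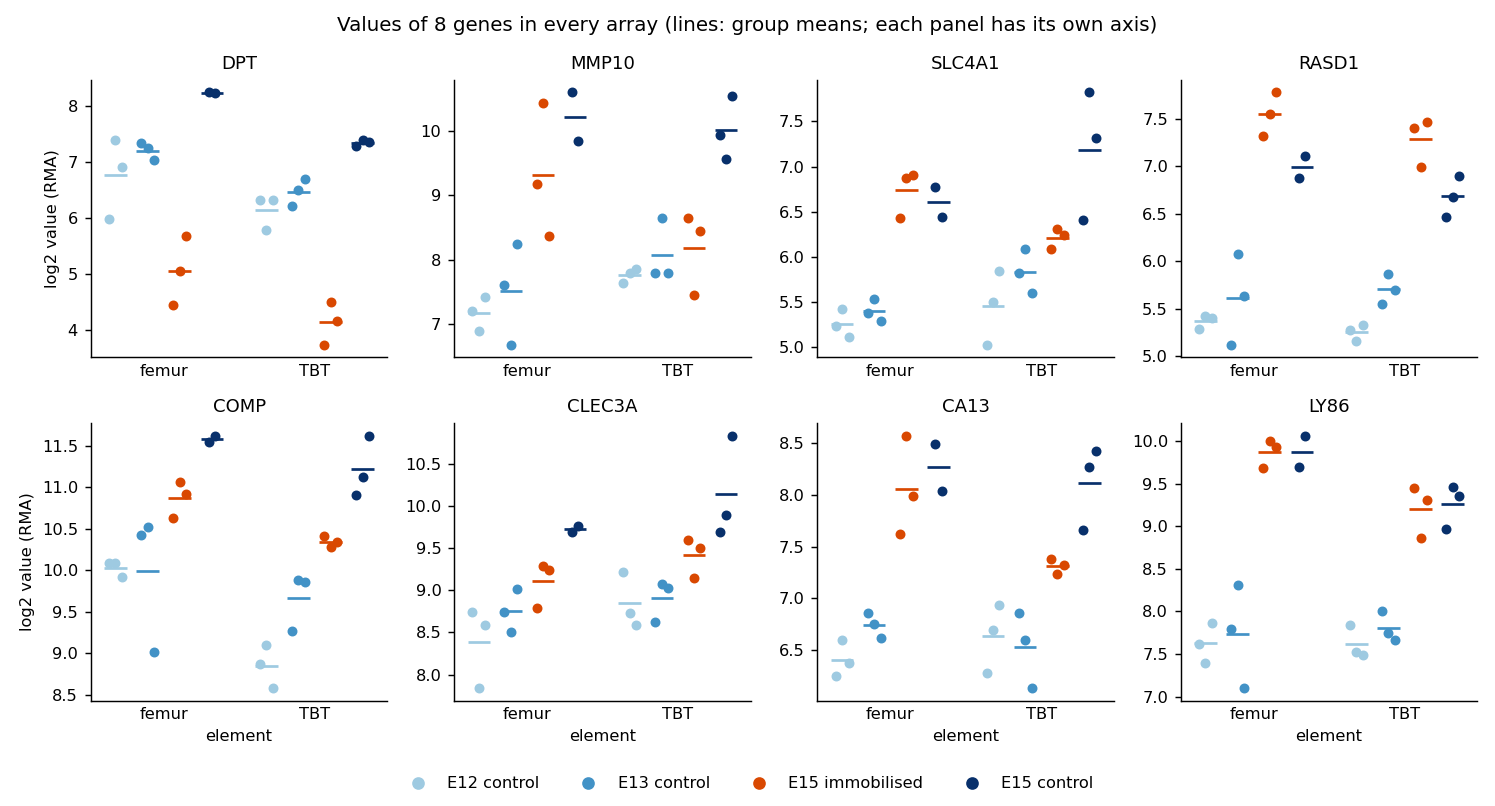
Log2 values of 8 of the genes in every array, by stage and treatment, femur left of TBT in each panel, with group means as lines and a separate axis for each gene. Immobilised arrays of DPT lie below all others, those of RASD1 lie above their controls in both elements, and those of LY86 overlap them.

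Immobilised arrays of COMP and CLEC3A all lay below their controls in both elements. COMP, an adaptor protein that links collagen fibrils, was 10.63, 11.06 and 10.92 in immobilised femur, against 11.54 and 11.62 in control femur (probe set 15483676). TBT values were 10.41, 10.28 and 10.34 in immobilised embryos, against 10.91, 11.12 and 11.62 in controls. The groups did not overlap in either element. The differences of -0.71 (adjusted p = 0.247, SE 0.33) in the femur and -0.87 (adjusted p = 0.0952, SE 0.29) in the TBT did not pass the threshold, although the TBT difference did without E13 control femur replicate 3 (adjusted p = 0.00869), whose value of 9.02 lay apart from 10.42 and 10.52 in its group. Immobilised COMP kept 54.8% of its rise in the femur and 55.4% in the TBT.

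CLEC3A, a C-type lectin of cartilage, was 8.79, 9.29 and 9.24 in immobilised femur, against 9.69 and 9.76 in control femur (probe set 15415534). TBT arrays read 9.59, 9.15 and 9.50 in immobilised embryos, against 9.69, 9.89 and 10.83 in controls. The groups were again apart in both elements, and neither difference was called (-0.62, SE 0.31, adjusted p = 0.291 in the femur and -0.72, SE 0.28, adjusted p = 0.15 in the TBT). Of the 23 measured cartilage matrix genes other than collagens, a list that holds COMP and LECT2, 1 was called lower in the femur (MATN2, -0.48, adjusted p = 0.0258) and 0 in the TBT, and 0 were called higher in either. The median response of that list was 0.12 in the femur and 0.04 in the TBT. Its stage differences were above 0 for 12 genes in the femur and 10 in the TBT, and at least 1.0 for 3 and 2. COMP and LECT2 are among these by the choice of genes.

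RASD1, a Ras-like GTPase first found as a glucocorticoid-induced gene, was the only one of the 17 whose immobilised arrays all lay above the controls in both elements (probe set 15429647). It was 7.32, 7.55 and 7.78 in immobilised femur, against 6.88 and 7.11 in control femur. Immobilised TBT arrays read 7.40, 6.99 and 7.47, against 6.47, 6.68 and 6.90 in control TBT. E12 and E13 arrays were lower than all of these, between 5.12 and 6.08 in the femur and between 5.16 and 5.87 in the TBT. Neither difference passed the threshold, at 0.56 (adjusted p = 0.157, SE 0.21) in the femur and 0.60 (adjusted p = 0.0751, SE 0.19) in the TBT. That of the TBT did so without E13 control femur replicate 1 (adjusted p = 0.0298) or 2 (0.032).

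None of the immune cell genes LY86, RAC2 and MMP9 was called in either element. LY86 (probe set 15459944), which encodes MD-1, the secreted partner of a Toll-like receptor homologue on leukocytes, was 9.68, 10 and 9.93 in immobilised femur, against 9.69 and 10.06 in control femur. TBT values were 9.45, 8.86 and 9.31 in immobilised embryos, against 8.97, 9.46 and 9.36 in controls. Immobilised and control arrays overlapped in both elements, and 99.8% of the rise was kept in the femur and 96.3% in the TBT. The differences were -0.01 (SE 0.27, adjusted p = 0.994) and -0.06 (SE 0.24, adjusted p = 0.944). The E12 and E13 arrays of both elements stayed between 7.10 and 8.31, below every E15 array.

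RAC2, a GTPase of blood cells, was 6.52, 6.82 and 6.04 in immobilised femur, against 7.15 and 6.95 in control femur (probe set 15387924). TBT arrays read 7.32, 5.92 and 7.43 in immobilised embryos, against 7.28, 7.77 and 8.21 in controls. Immobilised TBT replicate 2, which was also low in the granule genes, stood more than 1 unit below the other two. The femur groups did not overlap and the TBT groups did, and neither difference was called (-0.59, SE 0.41, adjusted p = 0.478 in the femur and -0.86, SE 0.37, adjusted p = 0.203 in the TBT).

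MMP9, the gelatinase of osteoclasts and neutrophils, was 10.20, 10.64 and 10 in immobilised femur, against 10.23 and 10.09 in control femur (probe set 15465856). In the TBT it was 10.18, 9.64 and 10.23 in immobilised embryos, against 10.30, 10.72 and 10.93 in controls. The femur groups overlapped (0.12, SE 0.22, adjusted p = 0.834) and the TBT groups did not (-0.63, SE 0.20, adjusted p = 0.0748, and 0.0317 without E15 control TBT replicate 1). A second MMP9 probe set (15551869) gave 0.10 and -0.61. The difference between the elements was 0.75 (SE 0.30, unadjusted p = 0.0221, adjusted p = 0.459). MMP9 is also on a list of mineralising matrix and hypertrophic cartilage genes, of which 20 were measured. Immobilisation differences of that list were below 0 for 8 genes in the femur (median 0.04, 1 called lower). In the TBT they were below 0 for 18 (median -0.34, 3 called lower).

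Of 15 measured genes of a leukocyte and osteoclast list, stage differences were above 0 for all 15 in both elements. The list holds MMP9 and LYG2, which were chosen for their rise. Under immobilisation 1 of the 15 was called, the osteoclast integrin gene ITGB3 in the TBT (-0.91, adjusted p = 0.0147). PTPRC, the pan-leukocyte antigen CD45, differed by 0.13 (adjusted p = 0.82) in the femur and -0.27 (adjusted p = 0.536) in the TBT. The summed level of the list was 11.34 to 11.67 in immobilised femur and 11.37 to 11.45 in control femur, and 11.03 to 11.71 in immobilised TBT and 11.47 to 12.10 in control TBT. At E12 and E13 it was 10.19 to 10.97. The share of blood cells in these values was not tested.

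CXCL14, a chemokine, was 9.74, 10.07 and 10.14 in immobilised femur, against 10.48 and 10.84 in control femur, without overlap (-0.68, SE 0.40, adjusted p = 0.384; probe set 15424104). In the TBT it was 9.64, 9.64 and 9.77 in immobilised embryos, against 9.71, 10.62 and 9.92 in controls, with overlap (-0.40, SE 0.35, adjusted p = 0.602). GRIN3A, a subunit of NMDA-type glutamate receptors, was 6.06, 6.32 and 6.33 in immobilised femur, against 6.64 and 6.52 in control femur (probe set 15560556). In the TBT it was 6.38, 6.06 and 6.22 in immobilised embryos, against 6.55, 6.23 and 7.61 in controls, of which replicate 3 stood apart. Its differences were -0.34 (SE 0.28, adjusted p = 0.558) and -0.58 (SE 0.25, adjusted p = 0.219).

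The granule genes varied more between arrays of a group than between immobilised and control cartilage. Their immobilisation differences were between -0.73 and -0.38 in the femur (adjusted p 0.697 to 0.856) and between -0.15 and 0.35 in the TBT (adjusted p 0.869 to 0.994), and the median SE was 0.852 and 0.762, against 0.145 and 0.129 over all probe sets. They kept 74.2% to 85.7% of the rise in the femur and 95.4% to 111% in the TBT. These shares are descriptions, since the minimum mean of 6 was taken over immobilised arrays too, and AvBD1 passed it at 6.04. In the TBT the direction differed by array code, the last digits of a code that the sample descriptions give without saying what it is. Among arrays with code 07 (1 immobilised and 2 controls) the differences were 0.89 to 1.58, and among those with 09 (2 immobilised and 1 control) they were -1.41 to -1.26. A single low array weighed on each. The granule gene mean with code 07 was 9.20 in the immobilised array, against 6.97 and 8.99 in controls. With code 09 it was 7.17 and 9.18 in immobilised arrays, against 9.49 in the control. DPT was lower within both codes (-3.59 and -3.06), as were MMP10 (-1.60 and -1.62) and SLC4A1 (-0.77 and -1.54), and RASD1 was higher within both (0.72 and 0.55). All E15 femur arrays carry the code 05.

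Femur and TBT were then set against each other within treatments. All E15 femur arrays carry 1 array code and all E15 TBT arrays carry others, so element and code are confounded among them. With the code as a block, which draws on the E12 and E13 arrays, the calls over all probe sets fell to 17, against 225 without it, between immobilised femur and TBT and to 0, against 23, between control femur and TBT. Between immobilised femur and immobilised TBT, arrays that the choice of genes did not use other than in the mean, 0 of 17 genes were called (limma; 4 higher and 1 lower at an unadjusted p under 0.05), where 2.04% of all probe sets were, and 7.02% were higher and 6.59% lower at the unadjusted threshold. The lowest adjusted p was 0.129, for CA13, which was higher in the femur by 0.75 (SE 0.24). DPT was higher in immobilised femur by 0.92 (SE 0.31, adjusted p = 0.144), MMP10 by 1.14 (SE 0.47, adjusted p = 0.263) and LY86 by 0.66 (SE 0.24, adjusted p = 0.181), while the granule genes differed by -1.86 to -1.14 (adjusted p 0.263 to 0.538). In the controls of the same age, femur against TBT, 0 were called (2 higher and 1 lower at an unadjusted p under 0.05), against 0.209% of all probe sets (7.62% higher and 7.31% lower unadjusted), and the lowest adjusted p was 0.248, for DPT, at 0.89 (SE 0.35). The authors, who used another test (significance analysis of microarrays), did list DPT as higher in control femur than in control TBT at E15. The immobilisation effects themselves differed between elements for 0 of the 17 (2 higher in the femur at an unadjusted p under 0.05, SLC4A1 and MMP9), against 0.182% of all (4.56% higher unadjusted).

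The rule used E12 and E13 together, so their difference is separate from it in part. At E13 minus E12, 0 genes were called in either element (limma; 1 higher in the femur and 4 in the TBT at an unadjusted p under 0.05), against 0.00909% of all probe sets in the femur and 0.0% in the TBT, and 2.19% and 3.32% higher unadjusted. The differences were above 0 for 16 of 17 genes in the femur (46.8% of all probe sets) and 14 in the TBT (50%), with medians of 0.34 and 0.45. The 5 granule genes, which moved together, are among the 17. All E13 femur arrays carry the array code 07 and the E12 femur arrays 05 or 09, so stage and code cannot be told apart there. MMP9 had the lowest p in both elements, with 8.94, 9.23 and 9.41 at E13 and 8.54, 8.37 and 8.58 at E12 in the femur, and 9.62, 9.84 and 9.77 at E13 and 8.66, 9.26 and 9.03 at E12 in the TBT. E13 arrays lay above E12 arrays in both elements, by 0.70 (SE 0.20, unadjusted p = 0.00276, adjusted p = 0.591) and 0.76 (SE 0.20, unadjusted p = 0.00138, adjusted p = 0.723).

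Genes were also chosen by 1 element alone, with the minimum mean taken over the arrays of that element, an alternative added after the data were seen. The arrays of the other element then entered the choice only through the filter on low variation, which all genes so chosen passed. Of 26 genes that rose by at least 1.0 in the TBT, the femur rise was called higher for 22 and lower for 0, against 5.26% of all probe sets called higher and 6.97% lower, with a median femur rise of 1.29. Of 31 genes that rose by at least 1.0 in the femur, the TBT rise was called higher for 20 and lower for 0, against 3.74% higher and 5.72% lower, with a median TBT rise of 0.84. Immobilised femur was called higher than E12/13 femur for 19 of the 26 and lower for 1 (9.15% of all were called higher and 9.77% lower). Immobilised TBT was called higher than E12/13 TBT for 12 of the 31 and lower for 2 (3.44% and 4.72%). Against E15 controls, the difference in immobilised femur was below 0 for 19 of the 26 (median -0.36), and 1 was called lower, DPT, against 2.5% of all. In immobilised TBT it was below 0 for 24 of the 31 (median -0.40), and 6 were called lower, against 2.86% of all. These 6 were DPT (-3.21), the annexin gene ANXA1 (-2.02), MMP10 (-1.84), ALDH1A2 (-1.16), the chemerin receptor-like gene GPR1 (-0.83) and LRRC32 (-0.64). Both lists overlap the 17, and the pools of the elements may share embryos.

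Among genes outside the 17, DEFB4A had values most like the mean of the 17 genes (Pearson's r = 0.937 over 23 arrays, a description, since the arrays share stages). ATP6V0D2, a proton pump subunit of osteoclasts, came next (r = 0.917), followed by MYBL1 (0.903), COL4A1 (0.897) and BHLHE40 (0.893). The stage difference of ATP6V0D2 was 3.44 in the femur and 3.29 in the TBT, but its mean of 4.82 kept it below the minimum. Its immobilisation differences were -1.54 (SE 0.80, adjusted p = 0.31) in the femur and -1.77 (SE 0.71, adjusted p = 0.177) in the TBT.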

How the data were processed

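The authors processed 24 arrays, left out 1 as an outlier and deposited log2 values made by robust multi-array averaging (RMA). Sample records name affy, and the methods aroma.affymetrix. Neither source states a software version or genome build, so no positions are reported. Of 20804 probe sets, 12300 carry 1 gene symbol, 256 several and 8248 none in the platform annotation. All 17 genes matched RefSeq (GRCg7b) by gene ID.

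Group means of 8 groups over 23 arrays were fitted with limma 3.58.1 in R 4.3.3 (15 residual degrees of freedom) to 11004 probe sets with a linear standard deviation above 10, the filter of the methods, which all 17 passed. The methods' SAM was not used, because 2 against 3 arrays allow few permutations. The fit was tested on simulated data. A summed level is log2 of the sum of linear values over a list (RMA has no zero level). Named are the members, any called, members of lists, the 4 genes on each side of the threshold and the 5 most alike. The 6 genes called after choice by the femur alone and the granulocyte genes were named after their values were seen. Members and lists were chosen with earlier results of these data known. Replicate numbers, codes, filters, normalizations and single arrays were varied.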

Additional observations from a re-analysis of the deposited data

How the results depend on the processing

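With 2 or 3 arrays per group and a spread assumed equal in all groups, small responses could not be resolved, least of all for the granule genes. Fitting only the groups compared left 0 genes called lower in the femur, where DPT missed the threshold, and 1 in the TBT, DPT. A rise threshold of 0.8 gave 30 genes, of which 2 (femur) and 5 (TBT) were called lower, and a stricter one, which kept 12 genes, left 0 called in the femur. A minimum mean of 5 gave 26 genes, which hold all 17 and so DPT, MMP10 and SLC4A1. A minimum mean of 7 gave 7 genes, of which 0 (femur) and 1 (TBT) were called lower. Genes chosen by the femur rise alone gave 7 calls in the TBT, and 6 with the minimum mean taken over femur arrays, an alternative added after the data were seen. The TBT median was -0.11 when genes were chosen without E15 control TBT replicate 1 and measured against it alone, and -1.10 within array code 9 and -0.425 within code 7. With the array code as a block, added after the data were seen, 16 genes passed the rule, 15 of them shared, and DPT (0.997) and GRIN3A (0.92) fell short in the TBT. Under that block MMP10 in the TBT missed the threshold (adjusted p = 0.0589) and CA13 passed it (0.0425). Without the SD filter SLC4A1 in the TBT missed it (adjusted p = 0.0662). The cause of these shifts was not tested.

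Replicate numbers showed no pairing of immobilised with control samples, whose arrays of 1 number correlated between -0.054 and 0.046 in their deviations. Whether they pair femur with TBT pools was not checked. With the replicate number as a block, 1 gene (femur) and 3 genes (TBT) were called lower, 0 higher and 0 in every other comparison, and the calls over all probe sets for femur immobilisation were 631, against 483 without it.

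Leaving out each array in turn gave 14 to 20 genes. Calls lower were 1 in every such fit in the femur and 1 to 4 in the TBT, with 1 call without E15 control TBT replicate 3 or immobilised TBT replicate 2 or 3. Calls higher were 0 in the femur and 0 to 1 in the TBT, where RASD1 was called without E13 control femur replicate 1 or 2. The median response was -0.72 to -0.255 in the femur, the highest without immobilised femur replicate 1, and -0.865 to -0.377 in the TBT, the extremes without E15 control TBT replicates 1 and 3. The other 5 comparisons had 0 calls in every such fit.

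The sign of a response turned in 28 combinations of a gene and a fit, over 13 fits and 9 genes, and the gene was called in 0 of them. LY86 in the femur was 0.0236 with the replicate block and 0.0152 after quantile normalization, and LYG2 in the TBT was 0.0446 with the code block. The others left out 1 array each. In the femur, over all such fits, LECT2 ranged from -1.60 to 0.247, AvBD7 from -1.42 to 0.35, LYG2 from -1.23 to 0.36 and AvBD1 from -1.32 to 0.57, the highest without E15 control replicate 2 in each case. LY86 ranged from -0.19 to 0.18, CA13 from -0.46 to 0.02, MMP9 from -0.06 to 0.26 and SLC4A1 from -0.0333 to 0.297. In the TBT, LECT2 ranged from -0.805 to 0.755, AvBD7 from -0.705 to 0.833, AvBD6 from -0.352 to 1.02, LYG2 from -0.893 to 0.588, AvBD1 from -0.865 to 0.518 and LY86 from -0.203 to 0.117, the lowest without E15 control replicate 1 in each case.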
